A study of Mus musculus with 13 samples.

Results

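The nuclear genes of the mitochondrial respiratory chain and ATP synthase were described in mouse skeletal muscle. Members were the protein-coding rows of the count table whose gene symbol starts with Nduf, Uqcr, Atp5 or Cox followed by 4, 5, 6, 7 or 8, or is Sdha, Sdhb, Sdhc or Sdhd. These were 93 of 49315 gene rows, matched by name and not by any measured value. This rule and the gene lists used below were set with earlier results of these data known. Another 11 rows with such names are processed pseudogenes and were left out. RNA sequencing of polyA-selected RNA covered 13 samples whose source label is skeletal muscle, while the extraction label names white adipose tissue. The mice carried a floxed miR-181a2b2 locus on both chromosomes (miR-181a2b2flox/flox, called flox here and WT in the sample titles) or a systemic knockout of it (miR-181a2b2-/-, KO). Each genotype was fed CHOW or a diet labelled HFSC, which the labels do not spell out, with 3 libraries each for chow flox, chow KO and HFSC KO and 4 for HFSC flox. Hindlimb ischemia is named for the series, but no label says for a sample which limb was taken or when, nor gives an age. The labels do not tie each library to a mouse of its own, and p-values therefore reflect variation among libraries that could in part be technical.

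Complexes I to IV pass electrons from NADH and succinate to oxygen and pump protons across the inner mitochondrial membrane, except complex II, which pumps none. Complex V, the ATP synthase, uses the proton gradient to make ATP. A small core of subunits is encoded in mitochondrial DNA and the rest in the nucleus, and several complex IV subunits exist as a form found in most cells and a form made mainly in heart and skeletal muscle.

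By symbol, 38 members were subunits of complex I or close relatives, 8 were complex I assembly factors (the Ndufaf genes), 4 complex II, 8 complex III, 18 complex IV and 17 complex V. Ndufa4 and Ndufa4l2 were kept with complex I by name, although the NDUFA4 protein is now placed in complex IV. Of the 93, 91 had enough reads to be tested. Cox7b2 and Cox8c, testis forms of complex IV subunits, were the exceptions, with 0 and 1 read over all 13 libraries.

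Libraries held 20830943 to 45710227 counted reads. Values are in CPM, reads of a gene per 1e6 counted reads, after scaling of library sizes with edgeR's TMM factors (trimmed mean of M values). This scaling sets the bulk of genes level between libraries. A gene with no read is limited to 3 reads, between 0.0633 and 0.152 CPM, which covers counting error only. The muscle markers Acta1, Ckm, Mb, Des and Ttn summed to 42474 to 84074 CPM in every library. Muscle forms of complex IV subunits are also made in heart and brown fat, and markers of these tissues were not all absent. Of 5 heart markers, Myl7 had 0 reads and Nppa reached 0.394 CPM at most, while Tnni3 reached 1.90, Myh6 12.5 and Myl4 55.8. Of 4 brown fat markers, Ucp1 reached 1.82 CPM, Elovl3 0.107, Cidea 4.14 and Dio2 8.63. The 2 microRNA genes of the targeted locus had 0 reads in the 6 KO libraries, and flox libraries had at most 2 for Mir181a-2 and 0 for Mir181b-2, so these rows do not check the genotype labels. Within chow flox, replicates 2 and 3 stood apart from replicate 4. The level of 7 fibroblast and matrix markers (the median over genes of log2 CPM minus each gene's mean over the 13 libraries) was 0.67, 1.66 and -0.76 in these 3 libraries in order of number. For 7 macrophage markers these levels were 0.99, 1.82 and -0.86. In chow KO they were -2.41 to -1.60 for matrix and -2.16 to -1.36 for macrophages, in HFSC flox 0.54 to 1.04 and 0.26 to 0.87, and in HFSC KO 0.23 to 0.60 and 0.25 to 0.49. In bulk tissue, fewer cells of a type and less RNA per cell cannot be told apart.

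Per base of exon, the members of complexes I to V were abundant, and a few minor forms were not. Levels per length are given as RPKM, the TMM-scaled CPM per kilobase of merged exons, averaged over the 13 libraries. The median member had 199 RPKM in complex III, 176 in complex II, 168 in complex IV, 133 in complex V and 95.9 in complex I, against 11.6 for the complex I assembly factors. Atp5a1 and Atp5b, the alpha and beta subunits of the catalytic head of ATP synthase, led all members at 748 and 640 RPKM. Cox6a2 and Cox8b, the heart and muscle forms of complex IV subunits 6A and 8, followed at 559 and 548. In complex I the highest was Ndufb9, an accessory subunit, at 305, and in complex III Uqcrfs1, the Rieske iron-sulfur protein, at 287. The lowest tested were Cox6b2, a testis form of subunit 6B, at 0.257 RPKM, Cox4i2 at 2.09 and the assembly factors Ndufaf2, Ndufaf7 and Ndufaf3 at 2.96, 5.22 and 5.35. Atp5s and Ndufa4l2, the lowest of complexes V and I, followed at 5.91 each. Uqcrq, a small ubiquinone-binding subunit, was the lowest of complex III at 128.

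**Figure D1:**
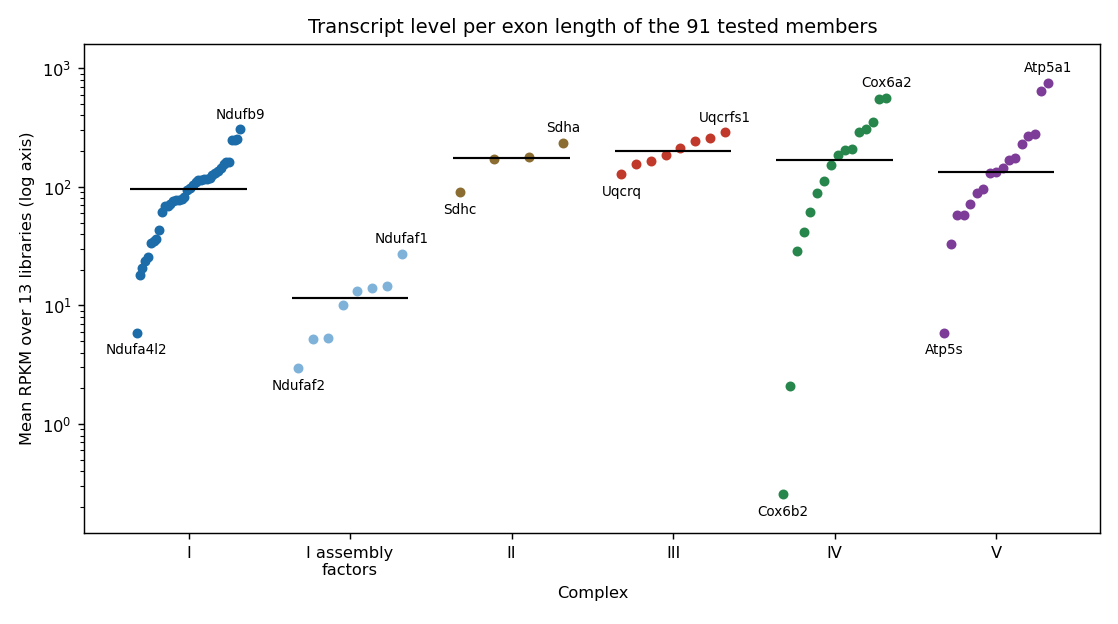
Mean RPKM over 13 libraries on a log axis for the 91 tested members, 1 point per gene, ordered by level within each complex, with a line at the median. Complex II and III genes lay in a narrow band, and complex IV ran from Cox6b2 at 0.257 to Cox6a2 at 559.

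The complexes moved together from library to library. The level of all tested members, as defined above for the markers, was -0.32, -0.47 and 0.07 in chow flox replicates 2, 3 and 4, and -0.20, 0.11 and 0.09 in chow KO replicates 1, 2 and 3. It was -0.08, -0.04, 0.08 and 0.09 in the 4 HFSC flox libraries and 0.28, 0.04 and 0.36 in the 3 HFSC KO libraries. Chow flox replicates 2 and 3 set the bottom of the range, and chow flox replicate 4 lay among the chow KO libraries. HFSC KO replicates 2 and 4 lay above all other libraries, and HFSC KO replicate 3 lay within the range of the chow KO and HFSC flox groups. Chow flox replicate 3 held the lowest value of the 13 libraries for 82 of 91 members, and HFSC KO replicate 4 the highest for 64. By group mean, chow flox was lowest for 85 members and HFSC KO highest for 78, while chow KO was highest for 13. Cox4i2, Cox6a1, Cox8a and Ndufa4l2 were the 4 members with the lowest mean in chow KO, Cox8b had it in HFSC flox and Cox6a2 in HFSC KO. The median coefficient of variation of a member within its group was 20.4% in chow flox, 12.97% in chow KO, 7.14% in HFSC flox and 11.9% in HFSC KO.

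The low values of chow flox replicates 2 and 3 depended on the scaling. Their TMM factors were 1.18 and 1.32, and that of chow flox replicate 4 was 0.877. Scaled by library totals alone, the level of the members was -0.08, -0.07 and -0.12 in the 3 chow flox libraries and -0.26, -0.11 and -0.17 in chow KO, and chow KO replicate 1, not chow flox replicate 3, was then lowest for 65 of 91 members. HFSC KO had 0.23, 0.08 and 0.39 and HFSC flox -0.04, -0.12, 0.12 and 0.14. HFSC KO replicate 3 thus lay within the range of HFSC flox, and replicates 2 and 4 above it. As a share of all counted reads, the members took 2.08% to 2.15% in chow flox, 1.87% to 2.15% in chow KO, 2.11% to 2.60% in HFSC flox and 2.51% to 2.94% in HFSC KO. The 13 mitochondrially encoded subunit genes did not follow the nuclear ones in every library. Their level was -0.73, -0.77 and 0.29 in chow flox and 0.09, -0.33 and 0.35 in HFSC KO. HFSC KO replicate 3 lay below all HFSC flox and chow KO libraries although its nuclear members were at 0.04. This level is a median over rows of very unlike abundance. In mt-Co1 the range was 18937 to 45459 CPM. No library exceeded 14.4 for mt-Co2, 18.9 for mt-Co3, 16.5 for mt-Atp6, 4.22 for mt-Atp8, 6.69 for mt-Nd4l or 56.4 for mt-Nd3. Whether reads of the low rows were lost in mapping or counting was not tested.

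**Figure D2:**
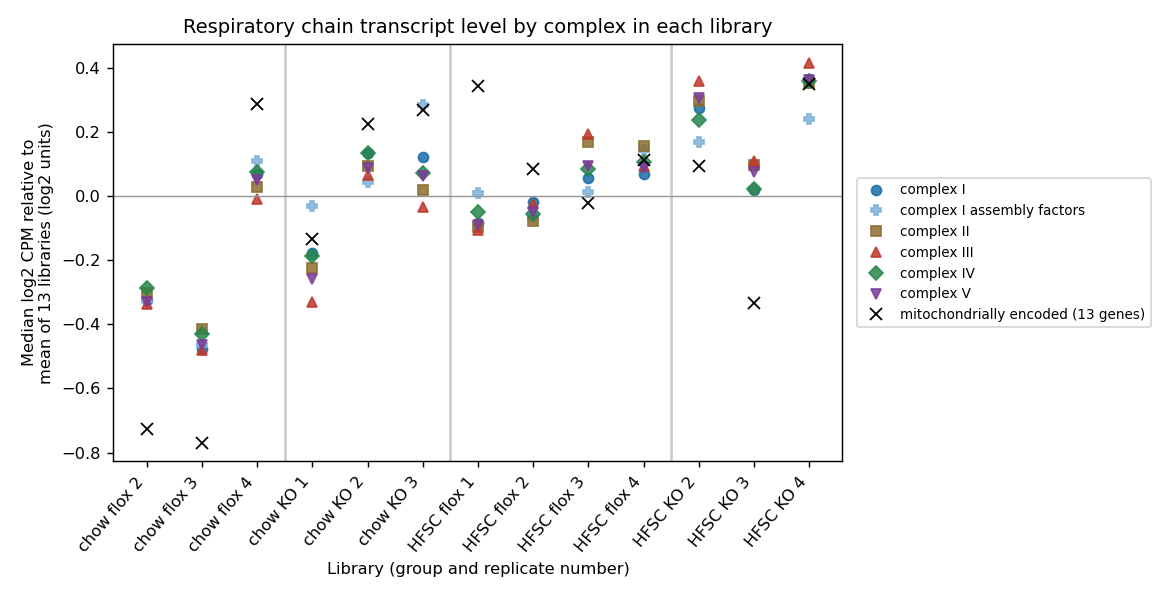
Level by complex in each library, as the median over members of log2 CPM minus the member's mean over the 13 libraries, with the 13 mitochondrially encoded genes as crosses. The nuclear complexes cluster in each library, lowest in chow flox replicates 2 and 3, and the crosses lie apart from them in several libraries, above in HFSC flox replicate 1 (0.34 against -0.08 for all members) and below in chow flox replicates 2 and 3 and HFSC KO replicate 3.

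On chow, the comparison of KO with flox asks what loss of the microRNA locus does without the HFSC diet. Cox6a1 and Cox8a, the broadly expressed forms of complex IV subunits 6A and 8, fell in KO, and no member rose. The edgeR quasi-likelihood test (adjusted p under 0.05, Benjamini-Hochberg) called 2 of 91 members, both lower, where it called 11.5% of all 16496 genes tested, 1.38% higher and 10.1% lower. Most members leaned the other way without passing: 87 of 91 had a log2 fold change above 0, against 49.4% of all genes. The 5 defining muscle markers (median 0.48, 5 of 5 above 0) and 11 fast-fibre markers (0.52, 10 of 11) lay the same way and farther from 0, with 0 calls. The level of the muscle markers was -0.37, -0.52 and 0.25 in chow flox replicates 2, 3 and 4 and 0.12, 0.38 and 0.40 in chow KO, and its part in the members' values was not tested. The median of the members was 0.23 and that of all genes -0.01, while with library totals these were -0.089 and -0.35, so the members' sign turned with the scaling and their distance from all genes, 0.24 and 0.26, hardly did.

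Cox6a1 (ENSMUSG00000041697, chr5:115345642-115348981 on GRCm38, minus strand) had 21.7, 27.2 and 15.8 CPM in chow flox and 13.8, 13.7 and 13.1 in chow KO. On HFSC it had 20.1, 18.4, 21.7 and 22.1 in flox and 23.0, 24.5 and 28.7 in KO. The 3 chow KO libraries were the lowest of the 13 and lay close together, and chow flox replicate 4 was the nearest above them. The log2 fold change of KO against flox on chow was -0.67 ± 0.16 (SE; adjusted p = 0.0259), from 21.5 ± 5.71 to 13.5 ± 0.409 CPM (SD, n = 3 each). Its partner Cox6a2 (ENSMUSG00000030785, chr7:128205435-128206387, minus strand), the muscle form, ran the other way. It had 311, 275 and 449.8 CPM in chow flox, 478, 529.6 and 534 in chow KO, 344, 356, 359 and 355 in HFSC flox and 332, 377 and 238 in HFSC KO. All chow KO libraries lay above all others, and HFSC KO replicate 4 was the lowest of the 13. On chow its difference was 0.57 ± 0.19 and did not pass (adjusted p = 0.0688).

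Cox8a (ENSMUSG00000035885, chr19:7215153-7217616, minus strand) had 24.5, 31.2 and 24.8 CPM in chow flox and 20.6, 20.7 and 20.7 in chow KO, with 25.6, 25.3, 24.5 and 27.7 in HFSC flox and 28.7, 28.0 and 30.0 in HFSC KO. Again the 3 chow KO libraries were the lowest of all (coefficient of variation 0.247%), and among the others only chow flox replicate 3 was above an HFSC KO library. The chow difference was -0.38 ± 0.10 (adjusted p = 0.0377). Cox8b (ENSMUSG00000025488, chr7:140898945-140900446), the muscle form, had 165, 146 and 231 CPM in chow flox and 201, 259 and 247 in chow KO, a difference of 0.38 ± 0.17 that did not pass (adjusted p = 0.14), and the groups overlapped.

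Ratios of the paired forms need no library scaling. Cox6a1 was 6.97%, 9.90% and 3.51% of Cox6a2 by CPM in chow flox, 2.88%, 2.60% and 2.45% in chow KO, 5.16% to 6.21% in HFSC flox and 6.52% to 12.03% in HFSC KO. Chow KO lay below every other library, and HFSC KO above every HFSC flox library. Cox8a was 15.7% ± 5.38 of Cox8b in chow flox, 8.89% ± 1.22 in chow KO, 14.8% ± 1.26 in HFSC flox (n = 4) and 14.2% ± 1.80 in HFSC KO (SD, n = 3 for the others). Here too chow KO was lowest, at 8.02% to 10.3% against 10.7% for the lowest other library. The pair Cox7a1 and Cox7a2, muscle and general forms of subunit 7A, did not show such a split, with Cox7a2 at 56.6% to 65.8% of Cox7a1 in chow KO and 57.0% to 60.4% in chow flox.

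On chow, the matrix and macrophage markers moved with Cox6a1 and Cox8a. On HFSC, the medians for KO against flox were -0.41 for matrix and -0.06 for macrophage markers. They were 0.19 for endothelial markers (4 of 5 above 0) and 0.57 for white adipocyte markers (5 of 5). There Cox6a1 and Cox8a were higher in every KO library than in every flox library, without calls. All 7 matrix and all 7 macrophage markers fell in chow KO (medians -2.67 and -2.74), with summed CPM of 390 to 607 for matrix in chow KO against 1215 to 6701 in chow flox. Summed macrophage CPM was 34.1 to 68.5 against 93.4 to 968. Of 5 endothelial markers, all below 0 with a median of -0.64, Pecam1 and Cdh5 fell, with a summed CPM of 155 to 184 against 177 to 329. White adipocyte markers had a median of -0.53 (0 of 5 above 0) and 0 calls. The part of any of these in the fall of Cox6a1 and Cox8a was not tested. The calls rested on few libraries. Cox6a1 was not called without chow flox replicate 2 (-0.69) or 3 (-0.50), or without chow KO replicate 1 (-0.68), 2 (-0.68) or 3 (-0.64). Cox8a lost its call when any 1 of these 5 libraries was left out (-0.46 to -0.27), or HFSC flox replicate 1 or 2 or HFSC KO replicate 2 or 4 (-0.38 to -0.37). Leaving out chow flox replicate 4 moved the count from 2 to 53 members, 50 higher and 3 lower, where 42.8% of all genes were then called, and the members' median to 0.40. No member was called without chow flox replicate 2 (median 0.16, 2.68% of all genes called), chow flox replicate 3 (0.10) or chow KO replicate 2 or 3, the last 3 of which left 0 calls among all genes. A single member, a higher one, passed without chow KO replicate 1 (5.48% of all genes), and 1 (7.79% to 9.12%) without HFSC flox replicate 1 or 2 or HFSC KO replicate 2 or 4.

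**Figure D3:**
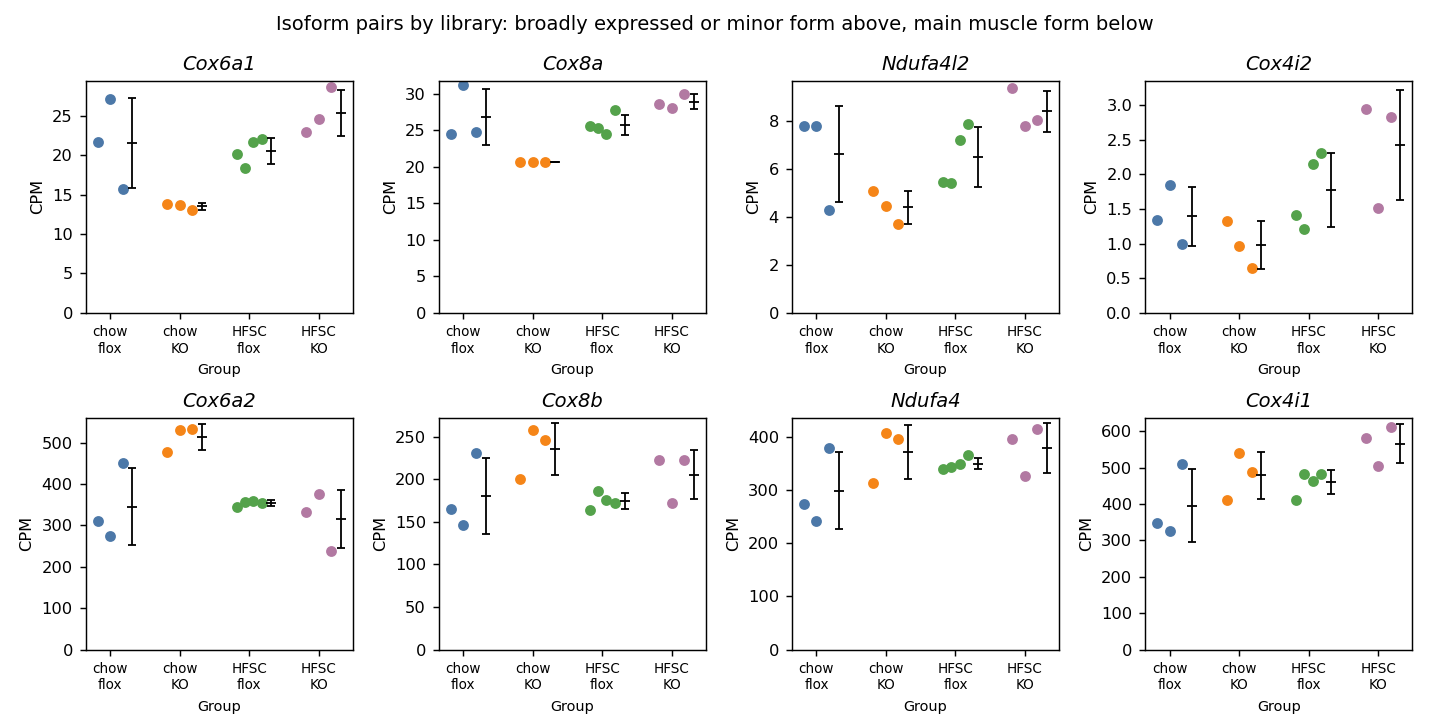
CPM of 4 pairs of related genes in each library, on axes that start at 0, with the mean ± SD of each group beside the points. Cox6a1 and Cox8a are lowest in the 3 chow KO libraries, and Cox6a2 is highest there.

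The upstream sequences of the 2 called genes are shown because both fell in the same libraries while the calls did not include their muscle partners. They are the 250 bases before the RefSeq start of each gene (GRCm38.p6), on the minus strand, chr5:115348959-115349208 for Cox6a1 and chr19:7217617-7217866 for Cox8a. Capitals mark the palindromic core of the site of NRF1, a transcription factor of many respiratory chain genes. Cox6a1 held it once, 162 bases before the start, and the 250 bases of Cox8a did not hold those letters.
Cox6a1: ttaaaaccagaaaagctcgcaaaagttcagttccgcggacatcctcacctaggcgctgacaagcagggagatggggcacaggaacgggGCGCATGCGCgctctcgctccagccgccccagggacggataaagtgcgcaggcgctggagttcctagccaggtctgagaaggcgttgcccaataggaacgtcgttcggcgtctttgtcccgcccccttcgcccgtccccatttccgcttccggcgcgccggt
Cox8a: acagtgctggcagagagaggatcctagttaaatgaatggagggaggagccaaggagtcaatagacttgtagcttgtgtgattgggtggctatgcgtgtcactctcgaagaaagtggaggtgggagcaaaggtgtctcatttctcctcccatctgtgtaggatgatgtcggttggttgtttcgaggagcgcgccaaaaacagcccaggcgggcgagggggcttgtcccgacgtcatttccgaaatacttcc

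Among the other members on chow, the 3 with the smallest p did not pass. Ndufaf8, a complex I assembly factor, had 9.4 ± 1.53 CPM in flox and 12.96 ± 2.62 in KO (0.47 ± 0.15, adjusted p = 0.0678), and Atp5s, a coupling factor B gene of low level, 10.3 ± 3.6 and 15.3 ± 0.733 (0.58 ± 0.20, adjusted p = 0.0697). The third is Cox6a2, above. By complex the medians were 0.24 for I, 0.27 for the assembly factors, 0.19 for II, 0.17 for III, 0.25 for IV and 0.20 for V, with Ndufaf6 highest of all at 0.61 and Ndufb4 highest among complex I subunits at 0.42.

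On HFSC, no single member passed between KO and flox, where 0.0182% of all genes did, 3 genes and all of them higher. At an unadjusted p under 0.05 there were 9 of 91 members and 1721 of 16496 genes, a similar share. DESeq2 (1.0% of all genes) and limma voom with sample weights (0.2%) also called 0 members. A log2 fold change above 0 was seen in 86 of 91 members (50.6% of all genes). The median was 0.21 against 0.00, and 0.20 with library totals. By library, the members' level overlapped between the groups, at 0.28, 0.04 and 0.36 in KO and -0.08, -0.04, 0.08 and 0.09 in flox. Since the complexes moved together from library to library, counts of members are not separate observations. In 21 members every KO library lay above every flox library, a share of 23.1%, where 7.4% of all genes did so, and in 0 members the reverse (5.31% of all genes). The smallest p was that of Ndufs8 (ENSMUSG00000059734, chr19:3908863-3912774), a core iron-sulfur subunit of complex I. It had 94.9, 97.0, 99.4 and 106 CPM in HFSC flox and 137, 116 and 155 in HFSC KO, with no overlap (0.45 ± 0.16, adjusted p = 0.362). Ndufb7, an accessory subunit, went from 92.0 ± 6.17 (n = 4) to 113 ± 8.57 (n = 3), Ndufa13, an accessory subunit also known as GRIM-19, from 173 ± 6.99 to 213 ± 23.9, Ndufa2 from 88.4 ± 5.41 to 109 ± 15.2 and Atp5o, the stalk subunit OSCP, from 324 ± 40.7 to 413 ± 45.9 (SD). None of these passed (adjusted p = 0.427 to 0.444). The members' median was 0.13 without HFSC KO replicate 4 and 0.30 without replicate 3. The marker lists held 2 of the 3 genes called among all genes. Myh6, of the heart list (median 1.61, 3 of 3 tested above 0), had 1.32 to 3.55 CPM in HFSC flox and 8.95 to 10.9 in HFSC KO (2.11 ± 0.29, adjusted p = 0.0347). On chow it had 7.45 to 10.3 in flox and 9.44 to 12.5 in KO, and Myl7 and Nppa of that list were too low to be tested. Hba-a1, of the red blood cell list (median 1.11, 4 of 4 above 0), had 11.1 to 16.1 and 27.9 to 35.8 (1.23 ± 0.16, adjusted p = 0.0347). White adipocyte markers had a median of 0.57 (5 of 5 above 0) and 0 calls. The matrix, macrophage and endothelial lists also had 0 calls, with medians of -0.41, -0.06 and 0.19. The part of any of these in the members' values was not tested. Here the mitochondrially encoded genes had a median of -0.19. Their low rows mt-Nd3, mt-Nd4l, mt-Co2, mt-Co3, mt-Atp6 and mt-Atp8 had -4.66 to -0.61, and the others -0.19 to 0.22.

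In flox mice, HFSC against chow gave a similar lean without calls. No member passed (0.418% of all genes did), with 18 members and 2105 of 16496 genes at an unadjusted p under 0.05. DESeq2 called 1 member (2.36% of all genes) and limma voom with sample weights 63 (25.1% of all genes). Of 91 members 87 lay above 0, against 47.8% of all genes, with a median of 0.23 (-0.01 for all genes), and 0.13 (-0.16) with library totals. Each pair of groups compared here shares libraries with 2 others, chow flox in this case with that of KO and flox on chow, so these medians are not independent of one another. Uqcrfs1 (ENSMUSG00000038462, chr13:30540308-30545362) had 299.7, 273 and 344 CPM in chow flox and 359, 381, 477 and 485 in HFSC flox, where every HFSC library lay above every chow library (0.48 ± 0.15, adjusted p = 0.205). Sdhb (ENSMUSG00000009863, chr4:140961203-140979193), the iron-sulfur subunit of complex II, had 260.4, 243 and 344 and 350.1, 357, 434 and 443, again with no overlap (0.49 ± 0.16, adjusted p = 0.221). In 6 members the groups did not overlap, all of them higher on HFSC, where 4.26% of all genes did so, and in 0 lower, where 5.6% of all genes did. The 5 with the smallest p also held Ndufaf1, a complex I assembly factor (0.51 ± 0.16), Uqcrc2, a core protein of complex III (0.48 ± 0.16), and Ndufc1, an accessory subunit of complex I (0.42 ± 0.15), with adjusted p between 0.221 and 0.265. Without chow flox replicate 4 the test called 27 members, all higher, where it then called 8.58% of all genes, and the median was 0.43. Without chow flox replicate 3 the median was 0.14. Slow-fibre markers fell over the same contrast, 7 of 9 called with a median of -2.60, as did Myh6 of the heart list, and the part of fibre composition in the members' values was not tested.

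In KO mice, HFSC against chow was the contrast with most calls. In all, 11 members rose and 1, Cox6a2, fell, that is 12 of 91, where 25.5% of all genes passed, 14.9% higher and 10.6% lower. The share of members called higher, 12.1%, was thus near the background. The median was 0.22 (0.02 for all genes), with 78 of 91 above 0 against 51.7%, and 0.41 (0.21) with library totals, where 65 members and 20.9% of all genes passed. Every HFSC library lay above every chow library in 28 members (30.8%, with 26.8% of all genes) and below in 3 (3.30%, with 23.8% of all genes). By complex the median was largest in III, at 0.38, and near 0 in the complex I assembly factors, at 0.01. It was 0.19 for I, 0.26 for II, 0.22 for IV and 0.29 for V.

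**Figure D4:**
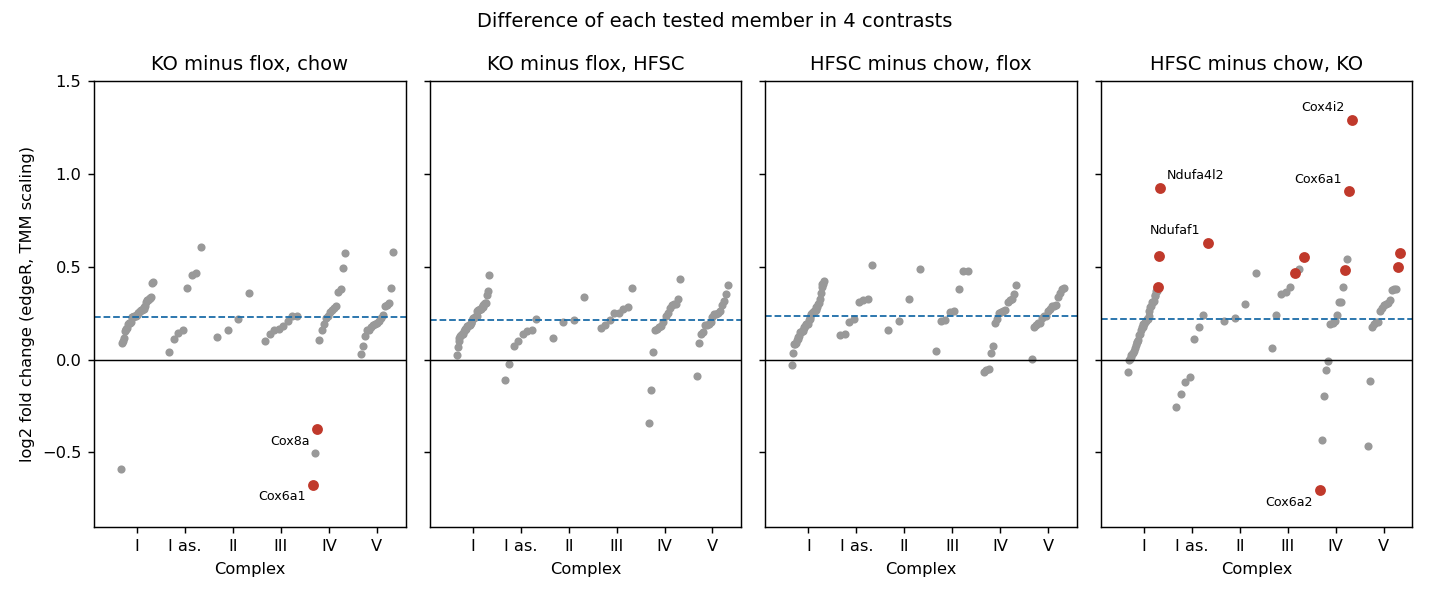
Log2 fold change of each tested member by complex in 4 contrasts, with members past an adjusted p of 0.05 in red and a dashed line at the members' median under TMM scaling. The medians are 0.23, 0.21, 0.23 and 0.22 from left to right (-0.089, 0.20, 0.13 and 0.41 with library totals), and complex IV holds the points farthest from them.

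The largest rises were those of Cox4i2, Ndufa4l2 and Cox6a1, forms other than the main muscle form. Cox6a1 went from 13.5 ± 0.409 to 25.4 ± 2.93 CPM (SD, n = 3 each), with all HFSC KO libraries above all chow KO libraries (0.91 ± 0.17, adjusted p = 0.00439). Cox8a went from 20.7 ± 0.0511 to 28.9 ± 1.03 (0.48 ± 0.10, adjusted p = 0.00854). These 2 calls held in all 7 other settings tried and in all 13 fits with 1 library left out. Cox6a2 fell from 514 ± 30.95 to 315 ± 70.7 (-0.70 ± 0.19, adjusted p = 0.0213), a call that was lost without chow KO replicate 2 (-0.68) or 3 (-0.68) or HFSC KO replicate 4 (-0.57).

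Ndufa4l2 (ENSMUSG00000040280, chr10:127514967-127517154), a relative of Ndufa4 that is known as a target of hypoxia-inducible factor 1, had 5.08, 4.44 and 3.71 CPM in chow KO and 9.38, 7.77 and 8.04 in HFSC KO, against 7.77, 7.77 and 4.31 in chow flox and 5.44, 5.42, 7.2 and 7.87 in HFSC flox. The KO groups did not overlap (0.93 ± 0.24, adjusted p = 0.0164), and of the chow flox libraries replicate 4 fell inside the range of chow KO and replicates 2 and 3 above it. Cox4i2 (ENSMUSG00000009876, chr2:152754173-152765037), an isoform of subunit 4 that is best known from lung and responds to oxygen, had 1.33, 0.959 and 0.646 CPM in chow KO and 2.94, 1.51 and 2.82 in HFSC KO, with no overlap. It had 1.34, 1.84 and 0.991 in chow flox and 1.42, 1.22, 2.14 and 2.3 in HFSC flox, and its main form Cox4i1 411 to 539.6 in chow KO and 506 to 613 in HFSC KO. At this low level, with 687 reads over all libraries, the difference was 1.29 ± 0.37 (adjusted p = 0.0264). Both calls were lost without chow KO replicate 2 (0.93 and 1.27) or 3 (0.82 and 1.07) or HFSC KO replicate 4 (0.93 and 1.14), and that of Cox4i2 also without HFSC KO replicate 2 (1.13).

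Markers of other cell types rose in the same contrast. All 7 matrix, all 7 macrophage and all 5 endothelial markers passed, with medians of 1.87, 2.18 and 1.22, and 4 of 5 white adipocyte markers (1.35). All 4 red blood cell markers (0.85), the heart markers Tnni3 and Myl4 of 3 tested (1.48) and Dio2 of 2 tested brown fat markers (1.25) rose as well. Of 11 fast-fibre markers Myh1 and Mylpf rose, while the median of that list was -0.33. Summed CPM of the matrix list was 2443 to 2956 in HFSC KO and 390 to 607 in chow KO, that of the endothelial list 382 to 423 and 155 to 184, and that of the adipocyte list 443 to 663 and 177 to 221. Slow-fibre markers fell, 8 of 9 called with a median of -2.70. The part of any of these in the members' changes was not tested.

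The other 7 that rose were 6 subunits of complexes I, III and V and the assembly factor Ndufaf1. In complex I, Ndufs8 had 74.1, 105 and 97.5 CPM in chow KO and 137, 116 and 155 in HFSC KO (0.56 ± 0.17, adjusted p = 0.0343). Ndufaf1 (ENSMUSG00000027305, chr2:119655446-119662827) had 27.9, 35.9 and 34.9 and 50.5, 47.4 and 54.6 (0.63 ± 0.17, adjusted p = 0.0226), 1 of 8 complex I assembly factors. In both, every HFSC KO library lay above every chow KO library. In complex III, Uqcrc2 (ENSMUSG00000030884, chr7:120635176-120659524) had 348, 455 and 408 CPM in chow KO and 602, 528 and 646 in HFSC KO (0.55 ± 0.17, adjusted p = 0.032). In complex V, Atp5k (ENSMUSG00000050856, chr5:108433244-108434448), the small membrane subunit e, had 118, 151 and 151 and 214, 188 and 222 (0.57 ± 0.16, adjusted p = 0.0226). The last 3 were named after their values were seen, to complete the 12. Atp5g3, one of 3 genes for the proton-carrying c subunit, went from 434 ± 66.1 to 613 ± 28.6 CPM (adjusted p = 0.0351), Uqcrfs1 from 346 ± 47.9 to 479 ± 9.78 (0.0447) and Ndufb7 from 86.5 ± 11.2 to 113 ± 8.57 (0.0482).

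These 7 calls turned on single libraries, as did the count of 12. Without chow KO replicate 1, 2 or 3, 5, 6 and 2 members passed (16.7%, 12.5% and 8.58% of all genes), and without HFSC KO replicate 2 or 4, 5 and 2 (17.5% and 10.6%), in place of 12. Without chow flox replicate 4, which is in neither group compared, 26 passed, where 6112 of 16972 genes did. Without chow KO replicate 1, whose level was the lowest of its group, the median was 0.13, and without HFSC KO replicate 4 it was 0.13. Ndufs8, Uqcrc2, Atp5k and Ndufaf1 were not called without chow KO replicate 1 (0.42, 0.45, 0.46 and 0.52), chow KO replicate 3 (0.60, 0.56, 0.63 and 0.67) or HFSC KO replicate 4 (0.43, 0.46, 0.49 and 0.55), and the first 3 also without HFSC KO replicate 2 (0.55, 0.54 and 0.55). Atp5g3 and Uqcrfs1 lost their calls when any 1 of the 6 KO libraries was left out, at 0.38 to 0.59 and 0.36 to 0.55, and Uqcrfs1 also without HFSC flox replicate 2 or 3 (0.47 each). Ndufb7 lost its call when any 1 of the KO or HFSC flox libraries was left out (0.28 to 0.44).

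Complex II and the remaining subunit forms had no calls. Sdha, the flavoprotein of complex II, had 711 to 946 CPM in chow flox, 856 to 1032 in chow KO, 857 to 1154 in HFSC flox and 1062 to 1165 in HFSC KO. Sdhb came closest in KO mice on HFSC, 363 ± 42.0 to 501 ± 54.4 CPM (0.47 ± 0.17, adjusted p = 0.0566), while the membrane anchors Sdhc and Sdhd had 0.21 ± 0.16 and 0.30 ± 0.16. Cox7a2l, which joins complexes III and IV into supercomplexes, had 97.6 to 102 CPM in chow KO and 86.0 to 109 in HFSC KO (-0.05 ± 0.12). Of the 3 c-subunit genes, Atp5g3 was the most abundant, at 149% to 228% of Atp5g1 by CPM over the 13 libraries, and Atp5g2 the least, at 25.3% to 46.6%. Levels per length gave 230.0 RPKM for Atp5g3 and 58.1 and 58.0 for Atp5g1 and Atp5g2. Cox7a1 had 0.54 ± 0.20 in KO mice (adjusted p = 0.0645), Cox6b1, the general form of subunit 6B, 0.31 ± 0.14 (adjusted p = 0.107) and Cox6b2, with 120 reads in all, -0.43 ± 0.58 (adjusted p = 0.593).

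The test of the interaction asked whether the effect of KO differed between the diets. No member and no gene at all passed (0% of 16496), with 5 members and 4811 genes at an unadjusted p under 0.05, and DESeq2 called 4 members (11.9% of all genes) and limma voom with sample weights 10 (42.8% of all genes). Cox6a1 came closest at 0.97 ± 0.22 (adjusted p = 0.0625), followed by Cox8a at 0.54 ± 0.14 (adjusted p = 0.0716), Ndufa4l2 at 0.96 ± 0.32 (adjusted p = 0.0966), Cox6a2 at -0.74 ± 0.26 (adjusted p = 0.106) and Atp5s at -0.67 ± 0.27 (adjusted p = 0.133). The median over members was -0.02 (0.04 for all genes) and 0.29 (0.37) with library totals. Without chow flox replicate 4, 9 members passed, 3 higher and 6 lower, where 34.9% of all genes did. The fall of Cox6a1 on chow is therefore not shown to differ from its HFSC value of 0.30 ± 0.15 (adjusted p = 0.523).

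**Figure D5:**
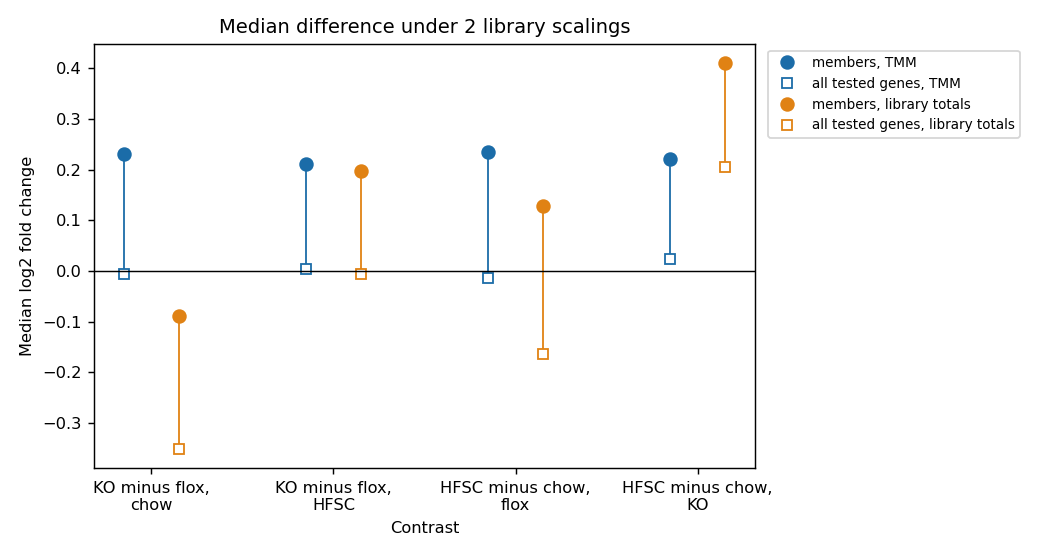
Median log2 fold change of the members (circles) and of all 16496 tested genes (squares) in 4 contrasts under TMM scaling (blue) and library totals (orange). The distance from squares to circles is 0.20 to 0.25 in blue and 0.20 to 0.29 in orange, while both shift together with the scaling, turning the members' median to -0.089 for KO against flox on chow.

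Other genes of the pathway were counted beside the members. Of the 13 mitochondrially encoded subunits, 2 fell in chow KO, mt-Nd3 and mt-Nd4l, and the median of the 13 was 0.56. On chow, mt-Nd3 had 23.0 to 44.4 CPM in flox and 1.40 to 1.85 in KO (-4.24 ± 0.83, adjusted p = 0.0178), and on HFSC 2.41 to 56.4 and 1.38 to 1.61 (-4.66 ± 0.82, adjusted p = 0.127). For mt-Nd4l the values were 3.07 to 6.02 and 1.43 to 2.28 on chow (-1.09 ± 0.31, adjusted p = 0.0436), and 3.27 to 6.69 and 1.72 to 1.82 on HFSC (-1.44 ± 0.30, adjusted p = 0.137). Both had every KO library below every flox library on either diet, as did 13.9% of all genes on chow and 5.31% on HFSC. Only the chow differences passed. For mt-Nd3 the lowest HFSC flox library, at 2.41 CPM, lay close to the KO range, while the HFSC flox mean was 37.2 ± 24.6 (SD). The rows of mt-Nd3 and mt-Nd4l are low, while mt-Nd1, mt-Nd4 and mt-Nd5 had 3584 CPM or more in every library. The latter had 0.61, 0.56 and 0.61 on chow and did not pass, and 11 of the 13 lay above 0 there. Whether mapping or counting of reads lowered mt-Nd3 and mt-Nd4l in KO was not tested. In HFSC against chow the 13 genes had 0 calls in either genotype, with medians of 0.43 in flox and -0.11 in KO. Of 13 TCA cycle genes, Suclg2, a succinyl-CoA ligase subunit, rose in chow KO (0.56 ± 0.14, adjusted p = 0.0257) and Dlst, of the 2-oxoglutarate dehydrogenase complex, rose on HFSC in KO (0.47 ± 0.16, adjusted p = 0.0473). Their medians over the 4 contrasts were 0.21, 0.14, 0.36 and 0.31. Of 7 electron carriers outside the rule, Cyc1, the cytochrome c1 of complex III, rose on HFSC in KO (0.53 ± 0.17, adjusted p = 0.0411), and Gpd2, the mitochondrial glycerol-3-phosphate dehydrogenase, fell (-0.90 ± 0.29, adjusted p = 0.04).

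Of 31 tested assembly factors outside the rule, 2 rose and 2 fell on HFSC in KO and none passed elsewhere. Atpif1, the inhibitor of ATP synthase, rose (0.80 ± 0.19, adjusted p = 0.0128), as did Foxred1, of complex I assembly (0.43 ± 0.14, adjusted p = 0.0436). Sdhaf3, of complex II assembly, fell (-0.80 ± 0.24, adjusted p = 0.0289), as did Uqcc3, of complex III assembly (-0.51 ± 0.16, adjusted p = 0.0387). Of 14 regulators, Ppargc1a, the coactivator PGC-1alpha, rose on HFSC in KO (0.99 ± 0.30, adjusted p = 0.0322) and Esrrg, an oestrogen-related receptor, fell (-0.83 ± 0.26, adjusted p = 0.0364). Ppargc1a had 41.0 to 71.0 CPM in chow KO and 58.7 to 173.6 in HFSC KO, so the groups overlapped. Esrrg had 42.0 to 55.6 and 26.3 to 28.9. Beside these lists and those above, 25.5% of all genes passed for HFSC against chow in KO and 11.5% for KO against flox on chow. Nrf1, the factor of the motif above, and Gabpa, an ETS factor, did not pass in any contrast and lay between 11.5 and 16.3 and between 36.1 and 51.1 CPM.

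RefSeq promoter sequences (GRCm38.p6) matched 74 of the 93 members by symbol, and the 250 bases before the start were searched on both strands. Members without a match included Cox6a2, Cox4i2, Ndufa4l2 and Uqcrc2, all called above, so their letters were not searched. The full NRF1 palindrome, in capitals in Cox6a1 above, stood in 5 of 74 members, 6.76%, against 0.781% of 27025 promoters of all genes and 1.06% of 17492 of protein-coding genes. Its shorter core TGCGCA, which overlaps the full letters where a T precedes or an A follows them, stood in 14 (18.9%, against 6.66% and 8.28%). The ETS letters CCGGAAGT stood in 3 (4.05%, against 2.93% and 3.84%), the ERR letters AAGGTCA in 5 (6.76%, against 4.05% and 3.58%) and the YY1 letters AAGATGGC in 0 (against 1.59% and 1.51%). GGGCGG, an Sp1 box, stood in 29 (39.2%, against 32.9% and 42.7%) and CCAAT in 33 (44.6%, against 34.5% and 36.3%). A match describes letters in this window only. The 5 full NRF1 matches are shown with 10 bases on each side, since of the motifs searched this one had the largest ratio of its share in members to its share in all promoters, with the motif in capitals, at chr15:102671070-102671099, chr5:108434430-108434459 and chr5:115349101-115349130 on the minus strand and chr17:56717692-56717721 and chr4:24897960-24897989 on the plus strand.
Atp5g2: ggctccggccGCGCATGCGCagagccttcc
Atp5k: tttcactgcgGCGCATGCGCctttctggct
Cox6a1: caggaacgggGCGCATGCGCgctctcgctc
Ndufa11: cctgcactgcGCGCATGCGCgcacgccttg
Ndufaf4: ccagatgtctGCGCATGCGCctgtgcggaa

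The 5 genes with these letters differed in which comparisons called them. Atp5k and Cox6a1 rose on HFSC in KO, whereas Atp5g2, Ndufa11 and Ndufaf4 had log2 fold changes of -0.12 ± 0.13, 0.21 ± 0.14 and -0.25 ± 0.19 there and did not pass (adjusted p = 0.528, 0.28 and 0.337). On chow, Cox6a1 fell while Atp5g2, Ndufa11 and Ndufaf4 had 0.39 ± 0.13, 0.27 ± 0.14 and 0.46 ± 0.19 and Atp5k 0.03 ± 0.16. The ERR letters stood in 5 members, and of these Atp5g3 alone rose on HFSC in KO. Ndufb2, Ndufb4 and Ndufs5 had 0.29 ± 0.16, -0.07 ± 0.19 and 0.03 ± 0.17 there (adjusted p = 0.186, 0.814 and 0.894), and Atp5l was not called either. Atp5g3 held the letters on the reverse strand 52 bases before its start (chr2:73911327-73911576, minus strand), in capitals here as TGACCTT.
Atp5g3: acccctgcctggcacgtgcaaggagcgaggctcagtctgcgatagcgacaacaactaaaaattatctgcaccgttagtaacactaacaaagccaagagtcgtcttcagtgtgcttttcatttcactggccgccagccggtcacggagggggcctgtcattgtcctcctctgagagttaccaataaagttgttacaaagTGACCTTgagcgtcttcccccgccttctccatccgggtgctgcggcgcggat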

How the data were processed

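The deposited values are raw read counts, 1 row per Ensembl gene and 1 column per library. Per the submitters' processing notes, the tools were Trimmomatic 0.36, STAR 2.5.2b and Subread 1.5.2 with its featureCounts, and the build was GRCm38. Not given in the sources used here were the strand setting, the annotation release and how multi-mapped reads were counted, so reads of a gene and of an antisense partner or near-identical pseudogene cannot be told apart. The 11 pseudogene rows with members' names held 0 to 108 reads each. Of 49315 identifiers, 49056 were matched to GENCODE M21 on GRCm38, which also gave exon lengths for RPKM. Each of the 13 columns was matched to its sample through its name, and all replicate pairs differed by more than sampling noise (chi-square per degree of freedom 10.5 to 193).

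The test was that of edgeR 4.0.16, run in R 4.3.3 (robust quasi-likelihood F test, 1 model with 4 group means, TMM, filterByExpr leaving 16496 genes, Benjamini-Hochberg threshold 0.05). A standard error is the absolute log2 fold change divided by the root of its F statistic. For levels, log2 CPM was taken with prior count 2. The code was tested on simulated data. The members and lists were chosen with earlier results of these data known. Members were named as the up to 8 called per direction with the smallest p (the 5 with the smallest p where fewer than 5 were called), the isoform pairs and c-subunit genes, complex II, Cox7a2l and the extremes of each complex. Alternatives were RLE size factors, library totals, no low-count filter, DESeq2 1.42.0, limma voom 3.58.1 with sample quality weights, the replicate number as a block, only the groups compared, and each library left out. Promoters came from RefSeq (GRCm38.p6).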

Additional observations from a re-analysis of the deposited data

Results flagged for a closer look

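In 50 items examined for a sample far from the other 3 in HFSC flox, the only group of 4, chance alone marks about 1 in 20, and 2 were marked. Ndufa13 had 183 CPM in HFSC flox replicate 3, while the other 3 libraries lay between 169 and 169.8. Uqcrq had 212 CPM in HFSC flox replicate 1, while the other 3 lay between 228.7 and 228.9.

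The percentage of Cox6a1 to Cox6a2 moved in opposite directions with genotype on the 2 diets. The mean of KO minus that of flox was -4.15 percentage points on chow and 2.68 percentage points on HFSC. The difference between the diets was not tested for this ratio.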

How the results depend on the processing

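No result changed to a called value of the opposite sign. Of 32 results for single members under up to 20 settings each, 517 kept their direction and their side of the threshold, 36 passed only under the alternative and 82 no longer passed. For KO against flox on chow the count of 2 members became 1 with no low-count filter, 6 with DESeq2 and 81 with voom, and 0 with only the groups compared (4.18%, 19.7%, 59.9% and 0.0131% of all genes), and the median of 0.23 became -0.089 with library totals. For HFSC against chow in flox the count of 0 became 1 with DESeq2 and 63 with voom (2.36% and 25.1% of all genes). In KO mice, HFSC against chow, the count of 12 became 65 with library totals and 34 with voom (20.9% and 43.1% of all genes), and the median became 0.41 with library totals. For the interaction, which has no fit with only the groups compared since it uses all 4, the count of 0 became 1 with no low-count filter, 4 with DESeq2 and 10 with voom (0.493%, 11.9% and 42.8% of all genes), and the median of -0.02 became 0.29 with library totals. The cause of these shifts was not tested. With 1 library left out, the counts ran from 0 to 53 (medians 0.10 to 0.40) for KO against flox on chow, 0 to 0 (0.13 to 0.30) on HFSC, 0 to 27 (0.14 to 0.43) for HFSC against chow in flox, 2 to 26 (0.13 to 0.31) in KO and 0 to 9 (-0.18 to 0.10) for the interaction. The replicate numbers of the titles gave no sign of pairing: over 16 same-numbered pairs the correlation of deviations from group means was -0.341 to 0.109, over 0.1 in 1. Pairs with different numbers were not compared, so the check cannot exclude a pairing. With the replicate number as a block the counts of 2 and 12 became 0 and 2 (0% and 14.4% of all genes), and the median of the interaction -0.22. Low-level members such as Cox6b2, with 120 reads in all, are limited by depth.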
